A study of Mus musculus with 10 samples.

Results

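The collagen genes are the genes for the chains of the collagen proteins, here every gene symbol of the deposited table made of Col, a type number, the letter a and a chain number. There were 43 such genes among 23370 genes, and where a symbol had several transcripts the one with the highest mean level was used. Levels are given as RPKM (reads divided by transcript length in kilobases and by library depth), as the authors deposited them. A gene was tested where at least 2 of the 10 libraries held it at 1 RPKM or more, which 25 of the 43 collagen genes and 12168 of all genes did. The other 18 collagen genes stayed below that level and are described near the end.

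Total RNA was sequenced from 10 libraries of mouse embryonic fibroblasts (MEFs), connective tissue cells taken from embryos and kept on uncoated plastic in serum. All cells were C57BL/6 and carried the H3.3b-HA knock-in, in which a cDNA for HA-tagged histone H3.3 takes the place of the H3f3b locus, so no library represents unmodified cells. Cells that were naive and cells that had been pretreated were harvested at 0, 1, 2, 4 and 6 h, and each combination of arm and hour is represented by 1 library. The labels give interferon-beta (IFN-β), an antiviral cytokine, at 100 U per ml for all samples, and the hours were taken to count from its addition. How the pretreatment was done (dose, duration, recovery) is not given in the labels. There is no labelled unstimulated sample at the later hours, so a change from 0 h cannot be told apart from time in culture or handling. Nothing in the labels says that libraries came from separate cultures, so every p-value below measures only the spread between these libraries.

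Collagens are the main structural proteins of connective tissue, and fibroblasts are their chief makers. Their chains wind into helices of several chains, either of 1 kind or of partners from the same type, and the helices build fibrils, sheets or filaments outside the cell. The chains are hydroxylated, glycosylated and folded in the endoplasmic reticulum, trimmed and cross-linked after secretion, broken down by metalloproteinases and sensed by integrins and discoidin receptors, while transforming growth factor beta (TGF-β) is a well-known inducer of their genes in fibroblasts.

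Depth lay between 94.4 and 261 M counts (M, mega) in the naive libraries and between 83.9 and 268 M in the pretreated ones. The pretreated 1 h and 4 h libraries stand apart from the other pretreated libraries. H19, an imprinted noncoding RNA, was named as a check of libraries that stand apart, with earlier results of these data known. It had 43.7 RPKM at 1 h and 44.4 RPKM at 4 h in pretreated cells, against 9.39, 9.19 and 9.78 RPKM at 0, 2 and 6 h. In naive cells H19 ran 110, 123, 89.5, 53.4 and 55.2 RPKM from 0 to 6 h. Interferon-stimulated genes were higher at 6 h than at 0 h in both arms, with Ifit3, an antiviral effector, at 1.38 RPKM in the naive 0 h library and 1262 RPKM at 6 h, and at 167 and 987 RPKM in the pretreated ones. Irf7, a transcription factor of the interferon response, went from 2.22 to 295 RPKM between the naive 0 h and 6 h libraries and from 180 to 310 RPKM between the pretreated ones, and Isg15, a ubiquitin-like modifier, from 0.608 to 254 RPKM and from 82.7 to 322 RPKM. Of 8 fibroblast markers, 7 passed the filter, and the summed level of the list was 5527 to 6611 RPKM in the naive arm, against 4585 to 5857 RPKM in pretreated libraries; Lum, a proteoglycan gene on that list, stayed at or below 0.195 RPKM. Each of 8 lists of markers of other cell types had members past the filter as well as members near 0. Of 5 cartilage markers 1 passed, the transcription factor gene Sox9, at 13.2 to 32.2 RPKM in the naive arm, against 15.2 to 33.3 RPKM in pretreated libraries, while Acan, the cartilage proteoglycan gene, reached at most 0.003 RPKM. Of 5 bone cell markers 2 passed, the transcription factor gene Runx2 at 14.0 to 20.6 RPKM and the phosphatase gene Alpl at 0.025 to 1.17 RPKM, while Ibsp reached at most 0.009 RPKM. Of 4 muscle markers 1 passed, the actin gene Acta1 at 6.56 to 11.4 RPKM, while Myod1 was at 0 in all 10 libraries. Of 5 macrophage markers Cd68 passed (1.89 to 3.57 RPKM) while Emr1 was at 0 in all libraries, and of 4 epithelial markers Cdh1 passed (1.05 to 5.07 RPKM) while Epcam reached at most 0.076 RPKM. Of 4 neural markers 3 passed (Tubb3, Map2 and Nes, at most 3.73 RPKM), of 4 adipocyte markers 2 (Pparg and Fabp4, at most 6.54 RPKM) and of 5 endothelial markers 2 (Kdr and Tek, at most 2.35 RPKM), while the neural gene Sox10, the adipocyte gene Adipoq and the endothelial gene Tie1 reached at most 0.011 RPKM. Between the arms edgeR called 0 of these 13 tested genes, and 2 stood at an unadjusted p under 0.05. DESeq2 called 2 of them and limma 0, where DESeq2 called 1371 and limma 204 of all 12168 genes. After stimulation edgeR called 4 of the 13, and 4859 of all genes. Alpl (2.74, edgeR adjusted p = 0.0197) and Map2 (0.77, 0.0174) were higher, and Tubb3 (-1.44, 0.0167) and Sox9 (-0.80, 0.0409) lower. The part of these genes in the collagen results was not tested.

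Stretches of DNA just upstream of the annotated start sites are shown because their genes carry the patterns described below. Col3a1 is an abundant fibril gene, Col6a3 was lower and Col10a1 higher in pretreated cells, and Col28a1 rose most after stimulation. Each is 150 bases on the gene's own strand, from RefSeq on GRCm38.p6, at chr1:45311388-45311537 (plus strand) for Col3a1, chr1:90843972-90844121 (minus) for Col6a3, chr10:34389831-34389980 (plus) for Col10a1 and chr6:8192618-8192767 (minus) for Col28a1. Capitals mark the TATA box letters TATAAA.
Col3a1: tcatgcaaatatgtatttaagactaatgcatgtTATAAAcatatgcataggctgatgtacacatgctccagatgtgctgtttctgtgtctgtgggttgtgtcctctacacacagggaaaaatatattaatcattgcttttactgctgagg
Col6a3: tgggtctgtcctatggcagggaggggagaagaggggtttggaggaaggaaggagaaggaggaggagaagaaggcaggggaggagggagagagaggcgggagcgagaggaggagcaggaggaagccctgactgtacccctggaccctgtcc
Col10a1: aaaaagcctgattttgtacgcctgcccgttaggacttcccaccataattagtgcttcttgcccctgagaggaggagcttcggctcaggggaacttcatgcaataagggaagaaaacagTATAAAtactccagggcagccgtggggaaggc
Col28a1: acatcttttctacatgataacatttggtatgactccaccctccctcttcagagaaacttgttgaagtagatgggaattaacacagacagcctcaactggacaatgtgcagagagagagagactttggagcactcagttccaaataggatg
In Col10a1 the 6 letters lay 32 to 27 bases before the start, and in Col3a1 they lay 117 to 112 bases before it. The Col6a3 stretch was 62.7% G and C and the Col3a1 stretch 37.3%.

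Promoter windows of 300 bases, from 250 before the start to 50 after it, were given for 35 of the 43 collagen genes and for 20 of the 25 tested. Each motif was searched on both strands. Shares are given of all windows and, as for the 20, of tested genes with the motif in any of their windows (8813 genes). The core of the interferon-stimulated response element was in 0 of these 20, in 3.44% of 32851 windows of all genes and in 3.78% of the tested genes. TATAAA was in 3 of the 20 (Col3a1, Col10a1 and Col11a2), in 13.6% of all windows and in 8.68% of the tested genes. CCAAT, the letters bound by NF-Y, was in 8 of 20, 37.4% of all windows and 43.5% of the tested genes. GGGCGG, the Sp1 letters, was in 14 of 20, against 35.7% of all windows and 70.3% of the tested genes. CAGAC, read by SMAD proteins, was in 12 of 20, 49.6% of all windows and 51.8% of the tested genes. These are matches of letters, given as a description.

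Collagen transcripts made up a large part of the RNA. The 43 genes together took 5.37, 5.46, 4.98, 4.49 and 4.12% of the counts in the naive libraries from 0 to 6 h. In pretreated cells they took 3.45, 4.77, 3.31, 4.61 and 3.29%. The pretreated 0, 2 and 6 h libraries were thus the 3 lowest of the 10, and the pretreated 4 h library was just above its naive partner. The 95% Wilson intervals of these shares, which cover counting error only, were at most 0.00910 percentage points wide. Leaving out Col1a1, the gene with the most counts, the shares were 2.66 to 3.22% in naive cells, and in pretreated cells 2.76 and 2.85% at 1 and 4 h and 1.88 to 2.02% at the other 3 times. A lower level in bulk RNA cannot tell fewer cells making a transcript apart from less of it per cell.

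**Figure D1:**
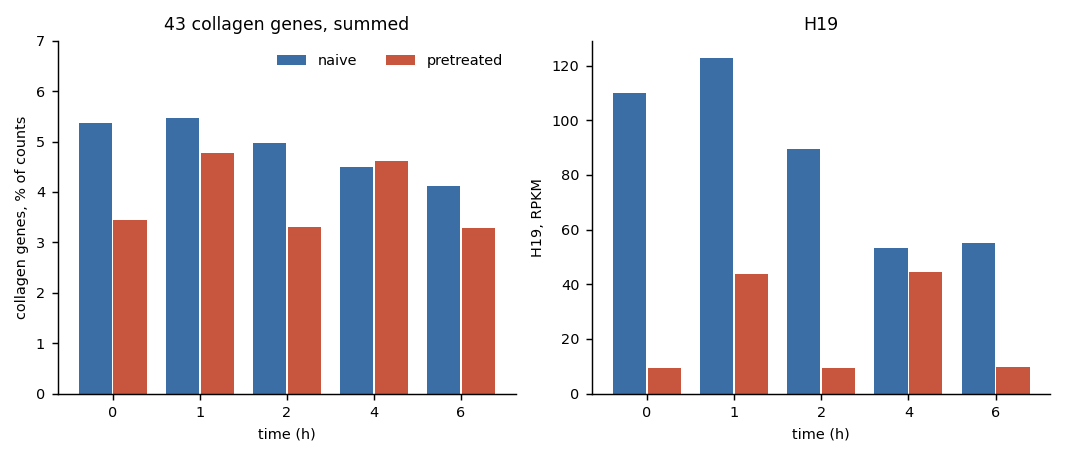
Left, percent of each library's counts taken by the 43 collagen genes, by time in hours and arm; right, H19 in RPKM for the same libraries. Each bar is 1 library; the pretreated 1 h and 4 h libraries are higher than the pretreated 0, 2 and 6 h libraries in both panels.

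Over the 5 times, 2 collagen genes were lower and 1 was higher in pretreated than in naive cells by edgeR's quasi-likelihood test at an adjusted p under 0.05. Of all genes tested, 0.879% were called lower and 0.386% higher. Col2a1, the chain of the main cartilage collagen, and Col6a3, a chain of beaded filaments, were the lower ones, and Col10a1, the collagen of hypertrophic cartilage, was the higher one. The median log2 difference of the 25 genes was -0.35, against -0.00 over all genes. At an unadjusted p under 0.05 stood 17 of the 25, and 2660 of all 12168 genes. DESeq2 called 11 lower and 1 higher, with 1371 of all 12168 genes called. Limma on log2(RPKM + 1) called the same 3 genes as edgeR, with 204 of all genes called.

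The calls depended on single times. Each time has 1 library per arm, so leaving out either library of a time takes that time out of the comparison. Without the naive or the pretreated 4 h library, 6 genes were called lower (Col2a1, Col5a3, Col6a1, Col6a2, Col6a3 and Col12a1), and without any one library of 0, 1, 2 or 6 h, none was. Over all genes, 154 were called with all libraries, 159 and 175 without a 4 h library and 2 or 7 without another one. Col10a1 lost its call without a library of 1 h or 2 h, with adjusted p reaching 0.0693. Without both the pretreated 1 h and the pretreated 4 h library, Col2a1 kept its call (-2.12, edgeR adjusted p = 0.0413), while Col6a3 (-0.90, 0.0622) and Col10a1 (0.85, 0.0584) did not pass.

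**Figure D2:**
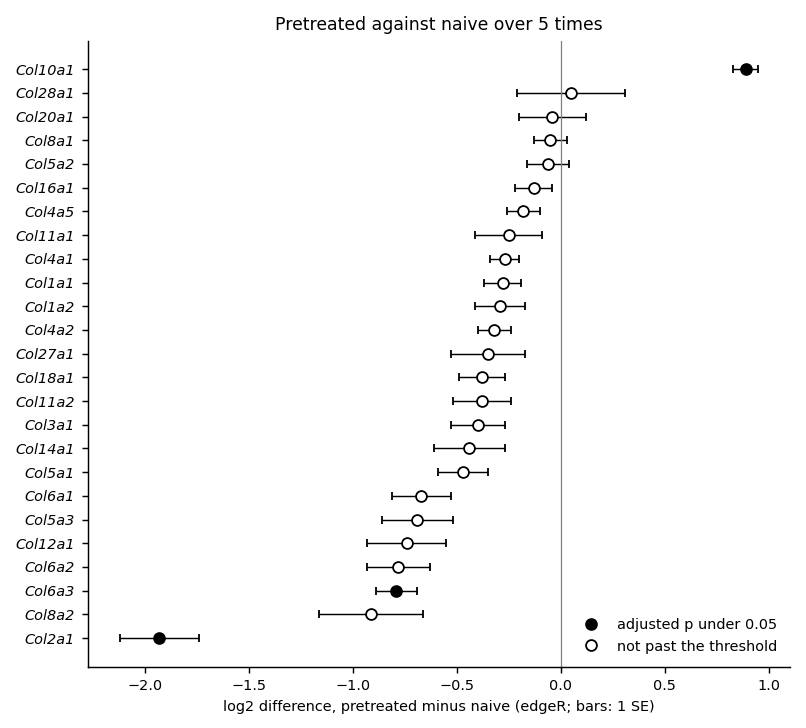
Log2 difference between pretreated and naive cells over the 5 times for the 25 tested collagen genes, from edgeR, with bars of 1 SE; filled points are past an adjusted p of 0.05. Col10a1 is at 0.89, Col6a3 at -0.79 and Col2a1 at -1.93, and 23 of 25 points lie below 0.

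The size of the difference did not move steadily in 1 direction over the 5 times. With 1 library per arm and time, library and time cannot be told apart here. The median of the 25 single-library differences, pretreated minus naive on log2(RPKM + 1), was -0.57, -0.22, -0.58, 0.02 and -0.28 in order of time from 0 to 6 h. The same median over all genes stayed between -0.03 and 0.05. The number of collagen genes below 0 was 23, 16, 24, 9 and 22 of 25 at the 5 times. At 0, 2 and 6 h together 21 of the 25 were lower in the pretreated library, which 19.6% of all genes were. These times were chosen after the data were seen, so the 21 of 25 is a description and no independent evidence. Lower at 5 of 5 times were 6 genes (Col2a1, Col4a1, Col4a2, Col6a1, Col6a2 and Col6a3), against 9.77% of all genes, and higher at 5 of 5 times was Col10a1, against 10.8%.

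On log2(RPKM + 1), a 2-fold or larger gap between the arms was likewise a matter of a few times. At 0 h it was found for 6 collagen genes (Col2a1, Col5a3, Col6a1, Col6a2, Col8a2 and Col12a1), where 3.39% of all genes had one. At 2 h it was found for 5 (Col2a1, Col6a2, Col6a3, Col8a2 and Col12a1), against 2.51%. Only Col2a1 was that far apart at 1 h, against 2.36% of genes, and at 6 h, against 0.370%. At 4 h none of the 25 was, against 0.370% of genes. The added 1 RPKM narrows the gaps of genes of low level. As plain ratios of RPKM, pretreated over naive, Col10a1 at 1 h (2.07), Col5a3 and Col14a1 at 2 h (0.482 each) and Col2a1 at 4 h (0.469) were also 2-fold or more apart. These gaps are between single libraries and have no test.

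**Figure D3:**
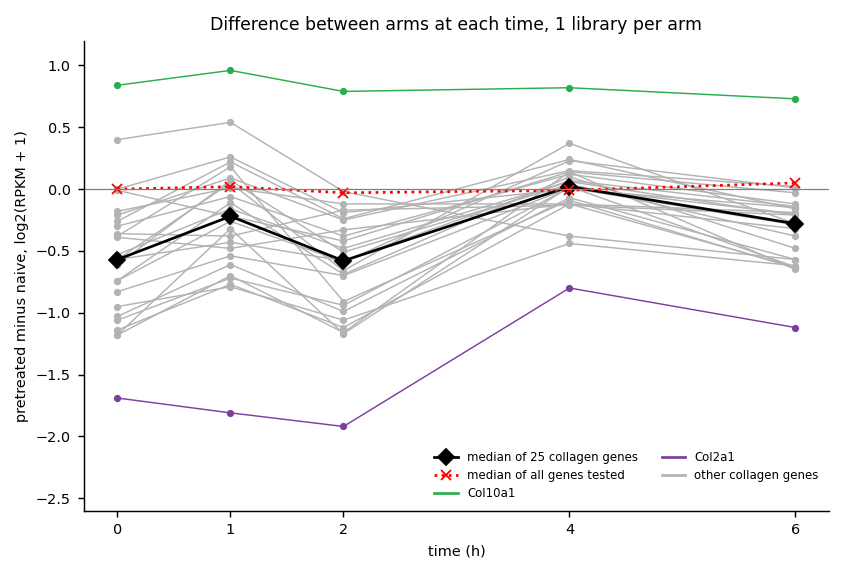
Pretreated minus naive difference on log2(RPKM + 1) at each time in hours, 1 library per arm, for the 25 collagen genes (lines), their median (diamonds) and the median of all genes tested (crosses). The collagen median moves from -0.57 at 0 h to 0.02 at 4 h, with Col10a1 above 0 and Col2a1 below the others at all 5 times.

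Within the pretreated arm, 18 of 25 collagen genes had their highest pair of values in the 1 h and 4 h libraries, where 9.00% of all genes did. In the naive arm none of the 25 did, against 2.85% of genes. H19 has the same order in the pretreated arm, but it was named as a check of such libraries and is no independent evidence. Its part in the collagen pattern was not tested.

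Among the fibril formers, Col1a1 and Col1a2 encode the chains of type I collagen, the bulk of the fibrous matrix. Col1a1 had 4973, 4959, 3990, 3707 and 3200 RPKM in naive cells from 0 to 6 h and 3455, 4433, 2863, 3870 and 2774 RPKM in pretreated cells. The naive values were lower at each later time, and the pretreated 0, 1 and 4 h libraries lay within the naive range. Col1a2 stayed between 1851 and 2033 RPKM in naive cells. In pretreated cells it was 1270, 1424 and 1426 RPKM at 0, 2 and 6 h, below the whole naive range, and 2028 and 2069 RPKM at 1 and 4 h, at its upper end. Between the arms the log2 difference by edgeR was -0.28 for Col1a1 (SE 0.09, adjusted p = 0.145) and -0.29 for Col1a2 (SE 0.12, adjusted p = 0.201).

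Col3a1, the chain of type III collagen that forms thin fibrils with type I, had 913, 1028, 1068, 1040 and 1032 RPKM in naive cells. The pretreated libraries had 548, 951, 661, 1116 and 737 RPKM. At 0 h the pretreated level was well under the naive one and at 4 h 1.07 times the naive one. The arm difference was -0.40 (SE 0.13, edgeR adjusted p = 0.153).

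Type V collagen starts fibrils and sets their width, and its chains parted ways. Col5a1 had 425, 417, 339, 246 and 217 RPKM in the naive arm, against 239, 287, 208, 249 and 189 RPKM in pretreated cells. Col5a2 had 232, 236, 264, 266 and 281 RPKM in the naive arm, against 193, 275, 222, 313 and 252 RPKM in pretreated cells. Of the pair, only Col5a1 was lower at later naive times. The third chain, Col5a3, lay between 9.53 and 14.8 RPKM in naive cells and had 5.45, 8.57, 5.67, 9.58 and 7.75 RPKM in pretreated cells, where only the 4 h library reached the naive range.

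The minor fibrillar chains were far lower in level than those of type I. Col11a1, which builds fibril cores with type II or V chains, lay between 17.7 and 23.4 RPKM in naive cells and had 11.6, 23.1, 14.5, 23.4 and 14.5 RPKM in pretreated cells. Col27a1, a chain of thin cartilage fibrils, had 4.88, 5.85, 4.88, 2.75 and 1.96 RPKM in the naive arm, against 2.52, 4.71, 2.91, 3.40 and 1.98 RPKM in pretreated cells.

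Col2a1, the chain of cartilage type II collagen (mm10 chr15:97975602-98004724, minus strand, 53 exons), had the largest arm difference of the 25 genes. Its naive values were 8.45, 11.1, 8.62, 3.95 and 3.46 RPKM and its pretreated values 1.94, 2.45, 1.54, 1.85 and 1.06 RPKM. Every pretreated library lay below every naive one. The log2 difference was -1.93 (SE 0.19, edgeR adjusted p = 0.0171), with adjusted p between 0.00488 and 0.0963 when 1 library was left out and past the threshold in 2 of these 10 fits. Sox9, a known driver of this gene, had 32.2, 22.6, 16.1, 14.8 and 13.2 RPKM in naive cells from 0 to 6 h. The pretreated libraries had 33.3, 15.6, 32.8, 15.2 and 19.2 RPKM of Sox9. The part of Sox9 in the Col2a1 difference was not tested.

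Type VI collagen forms beaded filaments around cells, and its 3 expressed chains were lower in pretreated cells at all 5 times. Col6a1 had 621, 669, 559, 444 and 412 RPKM in the naive arm, against 303, 438, 281, 422 and 278 RPKM in pretreated cells. Col6a2 had 458, 511, 398, 305 and 279 RPKM in the naive arm, against 206, 300, 183, 280 and 180 RPKM in pretreated cells. For both, the pretreated 1 h and 4 h libraries overlapped the late naive ones. Their log2 differences of -0.67 (SE 0.14, edgeR adjusted p = 0.0660) and -0.78 (SE 0.15, edgeR adjusted p = 0.0572) did not pass.

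Col6a3, the third and longest chain of the filament (mm10 chr1:90766860-90843971, minus strand, 41 exons), had 263, 263, 265, 192 and 174 RPKM in naive cells. The pretreated libraries had 136, 152, 126, 142 and 113 RPKM. The arms did not overlap, and the pretreated 4 h library, at 0.737 of its naive partner, was the closest. The log2 difference was -0.79 (SE 0.10, edgeR adjusted p = 0.0225), and adjusted p ran from 0.0178 to 0.116 when 1 library was left out, past the threshold in 2 of 10 fits.

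All 5 pretreated libraries lay below all 5 naive libraries for 4 collagen genes (Col2a1, Col4a1, Col4a2 and Col6a3), and 0.871% of all genes had that order. All 5 lay above for Col10a1, against 1.39% of genes.

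Col4a1 and Col4a2 encode the main chains of basement membrane sheets and lie head to head, sharing 22 exonic bases on opposite strands. Col4a1 had 161, 151, 140, 152 and 157 RPKM in the naive arm, against 125, 116, 124, 139 and 135 RPKM in pretreated cells. Col4a2 had 124, 129, 111, 99.0 and 97.2 RPKM in the naive arm, against 94.4, 91.9, 88.1, 91.2 and 84.8 RPKM in pretreated cells. The gap between the arms was small and without overlap for both. Unlike most of the family, their pretreated 1 h and 4 h libraries were not a high pair. The log2 differences of -0.27 (SE 0.07, edgeR adjusted p = 0.0982) and -0.32 (SE 0.08, edgeR adjusted p = 0.0793) did not pass. Col4a5, a chain of specialised basement membranes, lay between 8.81 and 12.0 RPKM in the naive arm, against at most 10.8 RPKM in pretreated cells.

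Col10a1 (mm10 chr10:34389981-34397085, plus strand, 3 exons) was the collagen gene called higher. It encodes a short chain that forms hexagonal networks in cartilage about to turn to bone. Its naive values were 7.22, 7.31, 7.33, 7.34 and 8.21 RPKM and its pretreated values 13.7, 15.2, 13.5, 13.7 and 14.2 RPKM. The pretreated level was 1.73 to 2.07 times the naive one at the 5 times, with no overlap and little change with time in either arm. The log2 difference was 0.89 (SE 0.06, edgeR adjusted p = 0.00566). Col10a1 lies inside the gene Nt5dc1 on the opposite strand, with 18 shared exonic bases, and whether counting used strand is not stated. Nt5dc1 had 4.54, 3.73, 5.84, 4.91 and 5.33 RPKM in the naive arm from 0 to 6 h. In pretreated cells Nt5dc1 had 5.19, 4.89, 6.32, 4.83 and 5.80 RPKM, below its naive partner only at 4 h. Its part in the Col10a1 difference was not tested.

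The other network formers of this class, the type VIII chains of vessel and corneal membranes, did not share that pattern. Col8a1 lay at 24.0 to 35.5 RPKM in the naive arm, against 20.8 to 29.8 RPKM in pretreated cells. Col8a2 had 5.18, 5.85, 4.63, 4.33 and 3.03 RPKM in the naive arm, against 1.73, 4.47, 1.50, 4.41 and 1.60 RPKM in pretreated cells. Its pretreated 1 h and 4 h libraries were far above the other 3 and lay within the naive range. The arm difference of Col8a2 was -0.91 (SE 0.25, edgeR adjusted p = 0.110).

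Fibril-associated collagens sit on the surface of fibrils and link them to their surroundings. Col12a1 had 127, 116, 135, 64.5 and 68.8 RPKM in the naive arm, against 55.5, 71.3, 60.1, 71.3 and 43.5 RPKM in pretreated cells. The naive 4 h and 6 h libraries had come down to the pretreated range. Its arm difference was -0.74 (SE 0.19, edgeR adjusted p = 0.0950). Col14a1 had 5.95, 9.17, 9.51, 11.3 and 8.74 RPKM in the naive arm, against 4.36, 10.5, 4.58, 10.5 and 5.24 RPKM in pretreated cells. Col16a1 lay at 17.5 to 28.0 RPKM in the naive arm, against 17.2 to 24.0 RPKM in pretreated cells. Col18a1, a basement membrane collagen whose end fragment is endostatin, had 16.2, 17.4, 13.7, 11.7 and 10.2 RPKM in the naive arm, against 10.6, 12.6, 8.78, 12.3 and 9.15 RPKM in pretreated cells.

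**Figure D4:**
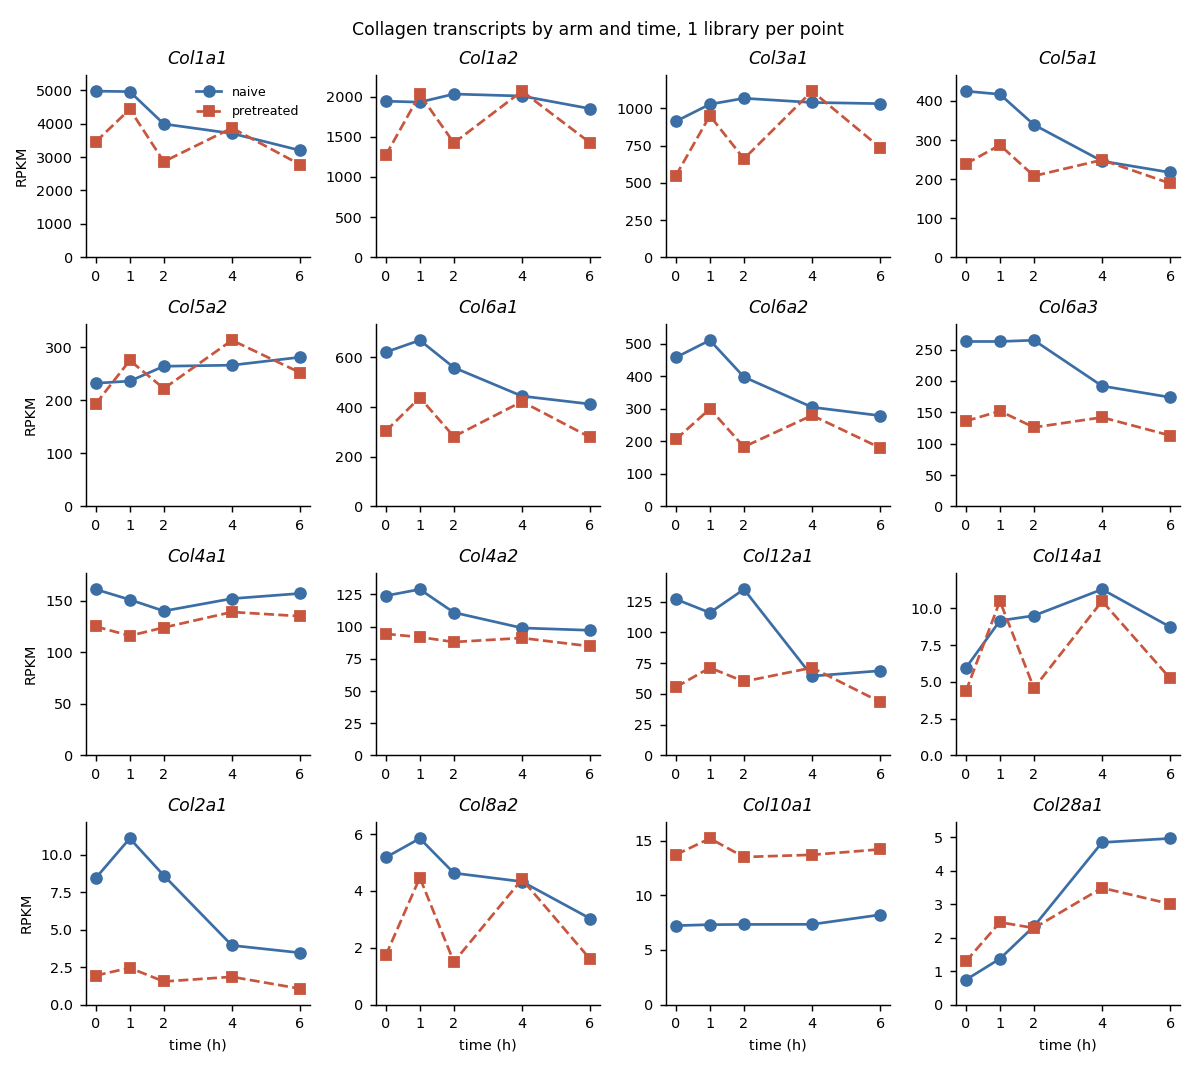
RPKM of 16 collagen genes by time in hours, naive (circles, solid) and pretreated (squares, dashed), 1 library per point and each axis starting at 0. Most panels show high pretreated points at 1 h and 4 h; the arms do not overlap for Col2a1, Col4a1, Col4a2 and Col6a3 (pretreated lower) and Col10a1 (pretreated higher).

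The time course was the next comparison, with the mean of 2, 4 and 6 h set against 0 h over both arms. By edgeR at an adjusted p under 0.05, 5 collagen genes rose and 0 fell, against 19.9% of all genes higher and 20.0% lower. The 5 of 25 that rose are thus about the share of all genes that did, and the 0 is below the share of genes that fell. At an unadjusted p under 0.05 stood 7 of the 25, all with higher values after stimulation, and 6225 of all 12168 genes. DESeq2 called 7 higher and 0 lower, with 5619 of all genes called. By limma 3 were higher and 0 lower, with 5098 of all genes called. The median difference of the 25 genes was 0.11, against -0.01 over all genes.

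The genes that rose were of low or moderate level, with Col28a1 first (mm10 chr6:7997808-8192617, minus strand, 35 exons). Col28a1 encodes a short-helix collagen known from the sheaths of peripheral nerves. It had 0.740, 1.37, 2.34, 4.85 and 4.97 RPKM in naive cells, from 293 counts upward, and 1.29, 2.46, 2.29, 3.49 and 3.01 RPKM in pretreated cells. At 6 h the level was 6.71 times that at 0 h in naive and 2.33 times in pretreated cells. By edgeR the log2 difference was 1.81 (SE 0.37, adjusted p = 0.0111).

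Col11a2, a fibrillar chain of cartilage, had 0.450, 0.478, 0.650, 1.33 and 1.29 RPKM in the naive arm, against 0.282, 0.485, 0.514, 1.15 and 0.840 RPKM in pretreated cells. Its difference was 1.41 (SE 0.20, edgeR adjusted p = 0.00529). Col20a1, a fibril-associated chain, had 0.541, 0.735, 1.02, 1.39 and 1.28 RPKM in the naive arm, against 0.537, 1.08, 0.776, 1.40 and 1.06 RPKM in pretreated cells. Its difference was 1.14 (SE 0.22, edgeR adjusted p = 0.00914). For both, the 0 h libraries were the lowest of their arm and the 4 h libraries the highest. Col14a1 rose by 0.71 (SE 0.23, edgeR adjusted p = 0.0447) and Col8a1 by 0.37 (SE 0.10, edgeR adjusted p = 0.0270).

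Both 0 h libraries weigh on these calls. Without the naive 0 h library none of the 5 was called, and only 8 of all genes were, against 4859 with it. Without the pretreated 0 h library 2075 genes were called, Col11a2 and Col28a1 among them. Without the naive 2 h or the naive 6 h library 3 were called (Col11a2, Col20a1 and Col28a1), and 3902 and 3222 of all genes. Without the naive 4 h library 8 were called, with Col3a1, Col5a2 and Col11a1 added, and 3697 of all genes. Without the pretreated 6 h library Col8a1 lost its call, with 4373 of all genes called. Without the pretreated 4 h library Col14a1 lost its call and 3 collagen genes passed as lower (Col1a1, Col2a1 and Col5a1). In that fit 4190 of all genes were called. These 3 also passed with the pretreated 1 h library left out as well, where 7 collagen genes were called higher. Calls over all genes were not counted for that last fit.

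**Figure D5:**
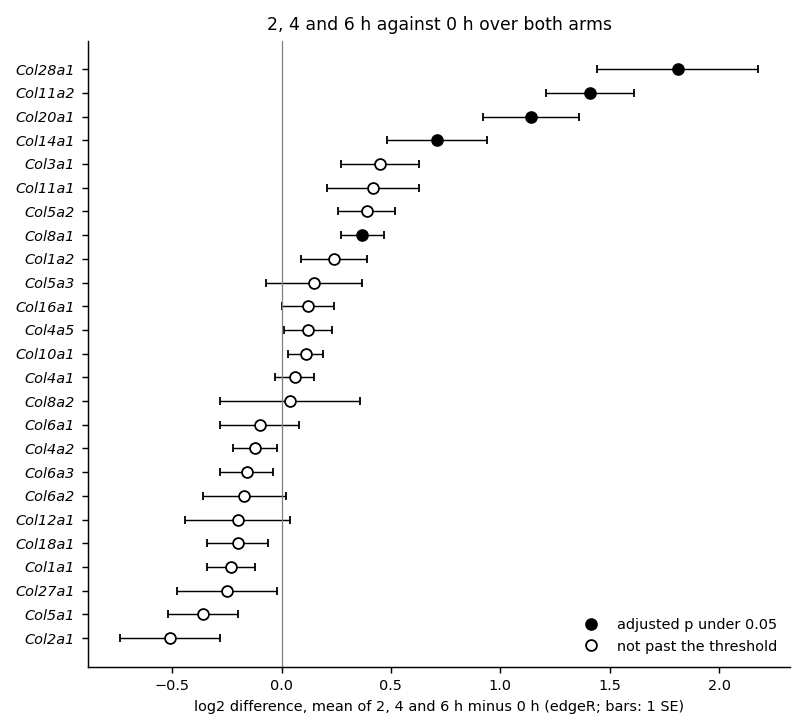
Log2 difference between the mean of 2, 4 and 6 h and 0 h over both arms for the 25 tested collagen genes, from edgeR, with bars of 1 SE; filled points are past an adjusted p of 0.05. The 5 filled points are all above 0, from Col8a1 at 0.37 to Col28a1 at 1.81, and Col2a1 is lowest at -0.51.

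Many chains, abundant or not, split in direction over the naive course, which had no test of its own. Col1a1 at 6 h was 0.644 of its 0 h level, Col5a1 0.511, Col6a1 0.662, Col6a2 0.610, Col6a3 0.660, Col12a1 0.543, Col27a1 0.401 and Col2a1 0.410. Over the same hours Col1a2 was at 0.952, Col3a1 at 1.13, Col4a1 at 0.973 and Col5a2 at 1.21 of their 0 h levels. In pretreated cells Col1a1 at 6 h was 0.803 and Col5a1 0.794 of the 0 h level. On log2(RPKM + 1), 2 genes were 2-fold or more apart between the naive 6 h and 0 h libraries (Col28a1 higher and Col2a1 lower), against 9.90% of genes. Between the pretreated 6 h and 0 h libraries none was, against 3.76%. In edgeR's test over both arms the differences were -0.23 for Col1a1 (SE 0.11, adjusted p = 0.136) and -0.36 for Col5a1 (SE 0.16, adjusted p = 0.104), and 0.45 for Col3a1 (SE 0.18, adjusted p = 0.0752).

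At 1 h against 0 h, edgeR called 0 of the 25 collagen genes and 0% of all genes. At an unadjusted p under 0.05 stood 4 of the 25 and 1383 genes. DESeq2 called 1, Col14a1 (adjusted p = 0.0154), with 236 of all genes called. Limma called none of the 25, and 5 of all genes. In edgeR Col14a1 had a difference of 0.98 (SE 0.27, adjusted p = 0.343). The median difference of the 25 was 0.33, against -0.00 over all genes. Between single libraries on log2(RPKM + 1) the median was 0.36 in the pretreated arm and 0.11 in the naive arm. Over all genes it was 0.01 and -0.01. Above 0 were 23 of 25 in the pretreated and 19 in the naive arm, a count not made for all genes. The pretreated 1 h library is one of those that stand apart.

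The change with stimulation was not found to differ between the arms. The term for arm by stimulation called 0 of 25 collagen genes and 0% of all genes in edgeR. At an unadjusted p under 0.05 stood none of the 25, although 741 genes did. DESeq2 called 133 genes and limma 15, with no collagen gene among either. The smallest edgeR adjusted p of a collagen gene was 0.853 for Col27a1, with a difference of 0.75 (SE 0.37). Col28a1, whose naive change was the larger one, had -0.93 (SE 0.59, edgeR adjusted p = 0.872), an error too wide to tell these changes apart.

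Chains that share a helix kept their proportions to different degrees. The ratio of Col6a1 to Col6a2 lay between 1.31 and 1.55 over the 10 libraries, 1.18 times from lowest to highest. The ratio of Col4a1 to Col4a2 ran from 1.18 to 1.61, and Col6a3 to Col6a1 from 0.336 to 0.474, with the pretreated 1 h and 4 h libraries lowest. Col1a1 to Col1a2 went from 2.56 at 0 h to 1.73 at 6 h in naive cells and from 2.72 to 1.95 in pretreated cells. Col5a1 to Col5a2 moved most, from 1.83 to 0.774 in naive and from 1.23 to 0.752 in pretreated cells. In this last ratio every later library was lower than the one before it in both arms, and the pretreated ratio was below the naive one at all 5 times. The ratios are of RPKM and have no test.

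The genes that make, trim and break down collagen were described as lists. Their counts of calls by edgeR stand beside 0.879% lower and 0.386% higher of all genes between the arms, and 20.0% lower and 19.9% higher after stimulation. Between the arms 2660 of all 12168 genes had an unadjusted edgeR p under 0.05, and DESeq2 called 1371 and limma 204. Of 20 tested genes for modification and folding in the cell, edgeR called 0 between the arms, with 6 at an unadjusted p under 0.05; DESeq2 called 2 lower and limma 0. Their median log2 difference was -0.10. Their most abundant genes were Serpinh1, a collagen chaperone (-0.29, edgeR adjusted p = 0.145), P4hb, a subunit of prolyl hydroxylase (-0.10, 0.339), and Ppib, a prolyl isomerase (-0.06, 0.641). After stimulation edgeR called 2 higher and 3 lower. P4ha1, one of several catalytic subunits of prolyl hydroxylase, rose by 0.51 (edgeR adjusted p = 0.0334) and Plod2, a lysyl hydroxylase, by 0.59 (0.0104). No other catalytic subunit of prolyl hydroxylase on the list was called. Fkbp10, a foldase, fell by 0.39 (0.0222), Leprel4, a member of the prolyl 3-hydroxylase family, by 0.33 (0.0442) and Glt25d1, a galactosyltransferase, by 0.27 (0.0390).

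Of 10 genes for processing and cross-linking outside the cell, edgeR called 1 lower in pretreated cells, with 5 at an unadjusted p under 0.05; DESeq2 called 4 lower and limma 1. The gene edgeR called was Pcolce2, an enhancer of procollagen trimming. It had 15.0 to 23.4 RPKM in the naive arm, against 4.56 to 8.40 RPKM in pretreated cells, with no overlap (-1.68, SE 0.07, edgeR adjusted p = 0.000435). Its close relative Pcolce was at 0.09 (0.525), the cross-linking enzyme gene Lox at -0.28 (0.110) and Loxl1 at -0.24 (0.102). After stimulation 1 rose, the lysyl oxidase gene Loxl3, by 0.76 (0.00567).

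Of 11 genes for breakdown and its inhibitors, edgeR called 2 lower in pretreated cells, with 4 at an unadjusted p under 0.05; DESeq2 called 3 lower and limma 2. Mmp3, the matrix-degrading stromelysin, had 5.50 to 10.9 RPKM in the naive arm, against at most 3.94 RPKM in pretreated cells (-1.11, edgeR adjusted p = 0.0171). Timp1, a metalloproteinase inhibitor, had 328 to 567 RPKM in the naive arm, against 244 to 382 RPKM in pretreated cells (-0.62, edgeR adjusted p = 0.0448), with overlapping ranges. The most abundant, Timp3 (0.03, 0.844) and Timp2 (-0.24, 0.107), did not pass. After stimulation Mmp13, a collagenase, rose by 3.19 (edgeR adjusted p = 0.00702). Between 0 and 6 h its naive level went from 0.471 to 8.05 RPKM, the pretreated one from 1.70 to 10.2 RPKM. Fap, a fibroblast surface protease, rose by 1.70 (edgeR adjusted p = 0.0134), and Timp1 fell by 0.53 (0.0192).

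Of 6 tested collagen receptor genes, edgeR called 0 between the arms, with 1 at an unadjusted p under 0.05, and DESeq2 and limma called 0. Among the most abundant were Itgb1, the integrin beta subunit they share, at -0.11 (edgeR adjusted p = 0.516) and the discoidin receptor Ddr2 at -0.03 (0.787). After stimulation Itgb1 rose by 0.37 (edgeR adjusted p = 0.0426) and Ddr1 fell by 0.44 (0.00565).

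Of 14 genes of TGF-β signalling, edgeR called 1 higher in pretreated cells, with 2 at an unadjusted p under 0.05; DESeq2 called 2 higher and limma 1. Ctgf, a matrix growth factor and common TGF-β target, had 20.1, 22.6, 50.8, 44.2 and 16.7 RPKM in the naive arm, against 27.3, 43.9, 91.3, 56.3 and 27.4 RPKM in pretreated cells (0.65, edgeR adjusted p = 0.0408). The pretreated library was the higher one at 5 of 5 times. The receptor gene Tgfbr2 (-0.11, edgeR adjusted p = 0.430) and the latency protein gene Ltbp1 (-0.05, 0.721) did not pass. After stimulation Ctgf rose by 0.90 (edgeR adjusted p = 0.00567), and 4 of the 14 fell, where 20.0% of all genes did: Tgfb1, the ligand, by 0.53 (0.0232), the inhibitor Smad7 by 0.52 (0.0251), the repressor Ski by 0.50 (0.0121) and the transducer Smad3 by 0.27 (0.0270). 

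Some fibroblast markers moved as well. Of the 7 tested, edgeR called 1 lower in pretreated cells, the fibronectin gene Fn1 (-0.26, adjusted p = 0.0481), with 5 at an unadjusted p under 0.05; DESeq2 called 3 lower and limma 0. The median of the 7 was -0.26, with the small proteoglycan gene Dcn at -0.49 (edgeR adjusted p = 0.0818), the surface protein gene Thy1 at -0.45 (0.164), the calcium-binding protein gene S100a4 at -0.34 (0.0587) and the filament gene Vim at -0.16 (0.212). The receptor genes Pdgfra (0.17, 0.374) and Pdgfrb (0.13, 0.471) lay above 0. After stimulation 3 of the 7 fell by edgeR, Thy1 by 0.90 (adjusted p = 0.0120), S100a4 by 0.38 (0.0141) and Fn1 by 0.28 (0.0111), and Dcn rose by 0.55 (0.0289). The part of these markers in the collagen differences was not tested.

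The list calls rested on single libraries to different degrees. With each library left out in turn, the arm difference of Pcolce2 was called in 10 of 10 fits (adjusted p up to 0.0112), those of Mmp3 and Ctgf in 2 each, and those of Timp1 and Fn1 in none (adjusted p at least 0.0520 and 0.0525). All list calls after stimulation were lost without the naive 0 h library, as were most calls over all genes. Those of Loxl3, Mmp13, Ddr1, Ctgf, Ski, Thy1 and Alpl were called in the 9 other fits, and those of Plod2, Timp1, Fap, Fn1, S100a4, Tubb3 and Map2 in 8 of 10. Fewer fits called Fkbp10 (7), Smad7 and Dcn (6 each), P4ha1 and Tgfb1 (5 each), Smad3 and Sox9 (4 each), Glt25d1 and Itgb1 (3 each) and Leprel4 (2).

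The 18 collagen genes below the filter add to the picture of the cell type. Closest to passing were Col9a3, a cartilage fibril-associated chain, with at most 0.843 RPKM, and Col7a1, the anchoring fibril chain of skin, with at most 0.548 RPKM. Just inside were Col11a2, at 1 RPKM or more in 3 libraries, and Col20a1, in 6. All 4 transmembrane collagens tabulated (Col13a1, Col17a1, Col23a1 and Col25a1) were below it, led by Col23a1 with at most 0.402 RPKM. The restricted basement membrane chains Col4a3, Col4a4 and Col4a6 reached at most 0.0630 RPKM, and the later type VI chains Col6a4, Col6a5 and Col6a6 at most 0.0690 RPKM. The remaining 6 (Col9a1, Col9a2, Col15a1, Col19a1, Col22a1 and Col24a1) reached at most 0.201 RPKM.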

How the data were processed

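Per the file headers, the rows of the deposited table are RefSeq transcripts (mm10), with a raw tag count for every library beside its RPKM. The counts are unnormalised as deposited; RPKM was calculated by the authors. Per the submitters' processing notes, Bowtie, TopHat, Cufflinks 1.2.1 and mm10 were used, with no role or order; the counting tool and its handling of strand and of multiply aligned reads are not stated. Of 30646 rows, 15 named no gene (0.0157% to 0.0193% of counts) and were left out. Symbols with several transcripts, 6 of them collagen genes, were represented by the one of highest mean RPKM.

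Counts of genes that reached 1 RPKM in 2 or more libraries were tested with edgeR 4.0.16 (quasi-likelihood functions glmQLFit and glmQLFTest, TMM scaling, R 4.3.3), two-sided, with Benjamini-Hochberg adjustment over 12168 genes and a threshold of 0.05. The model held time and arm (4 residual degrees of freedom), with an added arm by stimulation term (3) for the difference in change. Times and arms took the place of replicates. SE is the log2 difference divided by the root of F. Single libraries were compared on log2(RPKM + 1) without a test. Alternatives were DESeq2 1.42.0, limma 3.58.1 on log2(RPKM + 1) and log2(RPKM + 0.1), median-ratio scaling, no filter, transcripts summed, no time term and libraries left out. The tests were tested on simulated data.

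All tested collagen genes are named; of other lists, genes called in a test and the 3 of highest mean RPKM, 1 of which is not reported here. Other markers of cell types were named after their values were seen. The members, lists and tests were chosen with earlier results of these data known. Chain overlaps came from GENCODE M21, promoter windows from RefSeq on GRCm38.p6. At the depths of 83.9 to 268 M (mega) counts per library the tested collagen genes had at least 202 counts in every library.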

Additional observations from a re-analysis of the deposited data

How the results depend on the processing

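With all libraries, 2 collagen genes were lower and 1 higher in pretreated cells. The lower count was 11 in DESeq2, 4 without the filter, 0 without a time term and 1 without the pretreated 1 h and 4 h libraries, and ranged from 0 to 6 with 1 library left out. The higher count was 0 without those 2 libraries and ranged from 0 to 1 with 1 left out. After stimulation 5 were higher and 0 lower. The higher count was 8 without the filter, 3 in both limma fits and 0 to 8 with 1 library left out. The lower count was 3 without the pretreated 1 h and 4 h libraries and 0 to 3 with 1 left out. At 1 h DESeq2 called 1. No direction of a called gene reversed. The causes were not tested. The arm by stimulation term could not be fitted without a 0 h library.

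Gaps of 2-fold or more between single libraries changed with the scale. On log2(RPKM + 0.1) and on TMM-scaled CPM + 1 there was 1 at 4 h in place of 0, 5 between naive 6 h and 0 h in place of 2, and 2 between pretreated 6 h and 0 h in place of 0. At 1 h there were 2 on log2(RPKM + 0.1) in place of 1. Shares of all genes were not computed on these other scales, so these counts cannot be set against a background. Lower at every time compared were 21 genes in place of 6 when only 0, 2 and 6 h were used, a choice made after seeing the data. The arm comparison is paired by hour through its time term; the labels give no replicate number to block on. Each value rests on 1 library, so precision is limited by their number and not by depth.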
